A study of Mus musculus with 16 samples.

Results

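Imprinted genes with roles in growth were followed here in the retroperitoneal fat of gonadectomised mice. The members were chosen by name: Meg3, Dlk1, Mest, Nnat, Igf2, H19, Peg3, Cdkn1c and Grb10. Every probe set that the probe annotation gives to exactly 1 gene symbol, that of a member, was taken and is shown separately. This gave 14 probe sets of 8 of the 9 genes, out of 10833 probe sets and 8251 genes named in the same way, and H19 was not analysed here because no probe set carries its symbol alone. The mice, of a strain and age that the labels do not state, had all been gonadectomised, so that neither sex kept its gonads. For each sex and each of 6 times before death (1, 3, 6, 12, 18 or 24 h), 1 array came from mice injected with 0.1 mg of dihydrotestosterone (DHT), an androgen. Each sex also had 2 arrays of vehicle-treated mice, all labelled 24 h before death. Whether this is the time of the vehicle injection is not stated. That makes 8 female arrays (6 DHT, 2 vehicle) and 8 male arrays (6 DHT, 2 vehicle). The fat of the mice of a group was collected together, and whether the vehicle replicates are separate pools is not stated. The p-values below therefore rest on the spread between arrays alone, which could be technical.

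An imprinted gene is expressed mainly from the copy inherited from 1 parent, with DNA methylation at a control region marking which copy is silent. In mice the paternally expressed genes Dlk1, Igf2, Mest, Nnat and Peg3 sit in clusters beside or apart from maternally expressed genes such as Meg3, H19 and Cdkn1c, and Grb10 is maternally expressed in most tissues. In fat the family is known for DLK1, also called Pref-1, a surface protein of preadipocytes that holds back adipocyte differentiation, and for MEST, whose level tracks the growth of fat cells. The arrays measure total transcript and do not tell the parental copies apart.

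Values are MAS5 signals, linear intensities that summarise the probes of a probe set, and every array has a mean of 500 once the top and bottom 2% of its probe sets are set aside. Differences are on the scale of log2(signal + 16), which understates the change of dim probe sets. A suffix such as _s_at or _f_at marks probes that can match more than 1 transcript. Of the 14 probe sets, 12 reached the minimum mean signal of 127 for testing, and Igf2 98622_at and Grb10 95450_at did not. Median signals were 184 to 220 on the 16 arrays, and no pair of arrays held identical values. Xist, transcribed from the inactive X chromosome, was at 1033 to 2200 on female arrays and 4.74 to 61.0 on male arrays, so the sexes matched their labels. Adipoq, the adiponectin gene that defines adipocytes, was at 19206 to 31645 on 15 arrays and at 1946 on male vehicle replicate 2. Male vehicle replicate 2 had r values of 0.597 to 0.699 with the remaining arrays, against 0.872 to 0.976 among those 15. Its summed signal of 20 skeletal muscle markers was 398680, against 22757 to 74572 on the other arrays, and the differences that it moves most are given with and without it.

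The first start sites of the genes that differ between the sexes below are shown because Meg3 and Dlk1 lie beside each other on chromosome 12, while Grb10 is on chromosome 11 and Nnat on chromosome 2. The windows run from 250 bases before to 50 after the most upstream annotated start and come from RefSeq, build GRCm38.p6. Capitals mark CG pairs, the sites of DNA methylation, which these arrays did not measure. They are Meg3 at chr12:109540746-109541045, plus strand, Dlk1 at chr12:109452573-109452872, plus strand, Grb10 at chr11:12037371-12037670, minus strand, and Nnat at chr2:157559828-157560127, plus strand.
Meg3: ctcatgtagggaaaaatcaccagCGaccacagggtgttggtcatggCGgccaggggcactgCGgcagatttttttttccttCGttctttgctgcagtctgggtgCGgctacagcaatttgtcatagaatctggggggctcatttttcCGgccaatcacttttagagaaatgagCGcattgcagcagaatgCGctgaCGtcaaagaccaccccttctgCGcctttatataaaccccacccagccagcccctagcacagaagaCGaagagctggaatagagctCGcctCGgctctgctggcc
Dlk1: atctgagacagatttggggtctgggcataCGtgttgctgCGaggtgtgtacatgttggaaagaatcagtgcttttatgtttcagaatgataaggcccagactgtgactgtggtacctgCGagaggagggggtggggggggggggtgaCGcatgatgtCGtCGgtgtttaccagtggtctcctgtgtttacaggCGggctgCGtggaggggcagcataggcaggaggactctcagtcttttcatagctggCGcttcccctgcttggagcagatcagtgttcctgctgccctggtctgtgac
Grb10: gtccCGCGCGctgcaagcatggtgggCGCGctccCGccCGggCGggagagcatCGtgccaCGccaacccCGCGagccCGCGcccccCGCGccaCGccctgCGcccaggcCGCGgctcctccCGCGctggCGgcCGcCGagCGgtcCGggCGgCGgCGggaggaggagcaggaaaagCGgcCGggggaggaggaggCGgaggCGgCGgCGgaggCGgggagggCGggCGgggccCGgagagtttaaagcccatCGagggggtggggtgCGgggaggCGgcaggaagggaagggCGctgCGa
Nnat: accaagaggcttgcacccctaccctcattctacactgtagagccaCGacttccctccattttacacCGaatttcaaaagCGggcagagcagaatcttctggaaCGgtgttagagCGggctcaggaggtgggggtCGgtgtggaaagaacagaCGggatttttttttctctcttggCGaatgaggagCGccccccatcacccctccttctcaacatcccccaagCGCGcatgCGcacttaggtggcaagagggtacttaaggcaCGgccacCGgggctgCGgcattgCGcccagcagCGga

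The Grb10 window holds 45 CG pairs, more than 98.1% of the 32851 promoters of the table. Nnat has 17 (more than 68.6%), Meg3 has 13 (62.1%) and Dlk1 has 9 (54.2%), where the median promoter has 7. Both strands were also searched for AGAACA and its complement TGTTCT, the repeat unit of androgen response elements. The letters occur 1 time in the Nnat window and not in the Meg3, Dlk1 or Grb10 windows above. Over all annotated starts of the members they occur in 2 of 14 windows of 7 genes, beside 18.97% of all promoters. A match is a description of these letters only.

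Between the sexes, 4 of the 12 tested probe sets were called higher in females and 0 were called lower, while 7 had an unadjusted p under 0.05, Nnat alone of them being lower. The 4 were both probe sets of Meg3, the single one of Dlk1, and Grb10 93691_s_at (limma, Benjamini-Hochberg adjusted p under 0.05, two-sided, 8 female against 8 male arrays). Over all 7453 probe sets the same test called 4.74% higher and 1.09% lower, 5.82% in all, and 1452 had an unadjusted p under 0.05. The same 4 were the ones whose female and male arrays did not overlap, where 3.41% of all probe sets were higher and 0.845% lower in females without overlap. Without male vehicle replicate 2, Grb10 93690_at was also called higher and Nnat was called lower, 6 of 12 against a background of 15.9%. In bulk fat, fewer cells of a type and less RNA per cell cannot be told apart.

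Meg3, a maternally expressed long non-coding RNA, had the largest sex difference of the members. On 160172_at the female arrays read 2205 and 2340 with vehicle and 1578, 2078, 2043, 1895, 2044 and 2419 over the DHT times, from 1 h to 24 h. The male arrays read 322 and 364 with vehicle and 499, 179, 342, 129, 324 and 168 at the same times. No male array reached the lowest female array, and the male arrays were more scattered relative to their level. Signal averaged 2075 ± 264 on the female and 291 ± 124 on the male arrays (SD, n = 8 each). The log2 difference was 2.87 ± 0.22 (SE), 7.33-fold, with a limma adjusted p of 1.35e-05, the 12th largest of 7453 among probe sets higher in females. At matched DHT times the female array was 3.10 to 13.3-fold the male array, and between the vehicle arrays the means differed 6.39-fold.

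The second Meg3 probe set, 160173_at, showed the same direction with a smaller difference. Female arrays read 991 and 1388 with vehicle and 1126, 1139, 918, 940, 990 and 1238 over the DHT times. Male arrays read 468 and 232 with vehicle and 530, 412, 422, 387, 393 and 472 over the DHT times. Again the sexes did not overlap, and the lowest value was that of male vehicle replicate 2. The log2 difference was 1.38 ± 0.16, 2.61-fold, with a limma adjusted p of 0.00036, and 1.26 ± 0.10 without that array. The log2 ratio of 160172_at to 160173_at averaged 0.92 ± 0.22 on female and -0.57 ± 0.72 on male arrays (SD, n = 8 each). This inequality of 1.49 had an exact two-sided permutation p of 0.000311, or 0.00155 after Benjamini-Hochberg adjustment over 5 such pairs of probe sets of 1 gene. The other 4 pairs, of Peg3 and Grb10, had exact permutation p-values of 0.302 to 0.609.

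Dlk1, the paternally expressed neighbour of Meg3 and the preadipocyte factor, was higher in females by a smaller margin. Female arrays read 516 and 629 with vehicle and 621, 583, 623, 741, 657 and 513 over the DHT times. Male arrays read 404 and 332 with vehicle and 449, 458, 402, 366, 418 and 470 over the DHT times. The groups did not overlap, but the 24 h arrays came close, at 513 in the female and 470 in the male. The log2 difference was 0.55 ± 0.12, 1.46-fold, with a limma adjusted p of 0.0174. At matched times the ratio ran from 1.09 to 1.98. The call was lost when the 6 h or the 12 h DHT array of either sex was left out, and the highest adjusted p among the 16 fits that leave out 1 array was 0.0556.

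**Figure D1:**
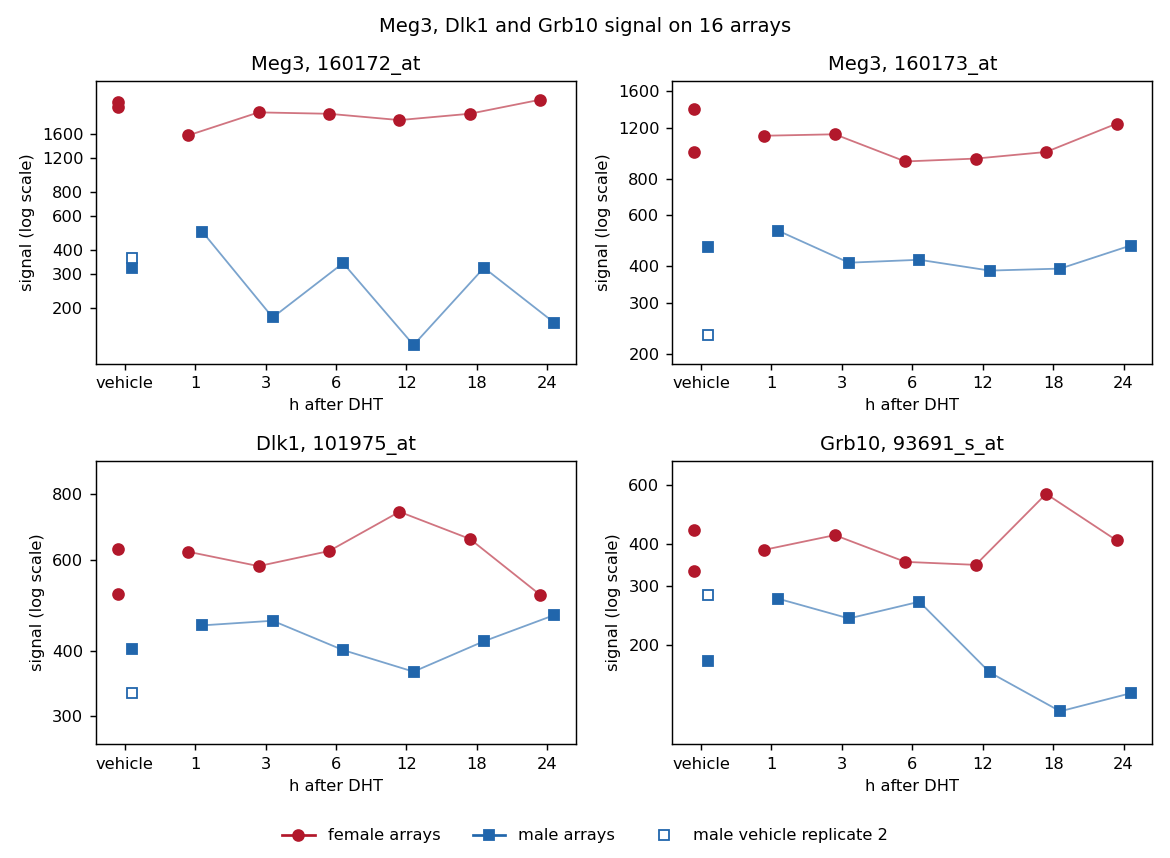
Signal (log axis) of both Meg3 probe sets, of Dlk1 and of Grb10 93691_s_at on vehicle arrays and at 1 to 24 h after DHT. Red circles are female arrays, blue squares male arrays, the open square is male vehicle replicate 2, and lines join the DHT arrays of a sex. In each panel every female array lies above every male array.

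Grb10, an adaptor protein that binds the insulin and IGF1 receptors and dampens their signalling, was higher in females on 93691_s_at. Female arrays read 440 and 332 with vehicle and 384, 425, 354, 347, 564 and 410 over the DHT times. Male arrays read 180 and 282 with vehicle and 275, 240, 269, 166, 127 and 144 over the DHT times. The male arrays at 12, 18 and 24 h were the 3 lowest of all 16, and the female array at 18 h was the highest. The log2 difference was 0.94 ± 0.19, 1.91-fold (limma adjusted p = 0.0136), and the ratio at matched times ran from 1.30 to 4.05. The call held in 16 of 16 fits that leave out 1 array.

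Grb10 93690_at averaged 308 ± 72.7 on the female and 181 ± 66.5 on the male arrays (SD, n = 8 each), with overlapping arrays. Its log2 difference of 0.76 ± 0.21 did not pass (limma adjusted p = 0.0645), but did without male vehicle replicate 2 (0.73 ± 0.22, adjusted p = 0.0425). The third Grb10 probe set, 95450_at, stayed below the filter, at 27.2 to 65.4 on female and 3.78 to 52.8 on male arrays. In a fit without the filter its difference of 0.53 ± 0.26 had an adjusted p of 0.365.

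Igf2, the fetal growth factor that acts on the receptors which Grb10 dampens, was not called between the sexes. Igf2 98623_g_at had a lowest, median and highest signal of 755, 1302 and 1521 on female arrays and of 924, 1156 and 1466 on male arrays. The ranges overlapped, and the log2 difference was 0.05 ± 0.14 (limma adjusted p = 0.905). Igf2 98622_at lay near the bottom of the scale, at 8.09 to 29.2 on female and 7.92 to 21.9 on male arrays.

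Nnat, which encodes neuronatin, a small membrane protein of the endoplasmic reticulum, was the member with the largest difference in the other direction. On 97520_s_at the female arrays read 1003 and 1652 with vehicle and 927, 1660, 1204, 1283, 1121 and 790 over the DHT times. The male arrays read 4991 and 390 with vehicle and 5124, 5267, 3515, 3150, 3294 and 3350 over the DHT times. All male arrays but vehicle replicate 2 were above all female arrays, and that array was below them all. Over 16 arrays the log2 difference of -1.35 ± 0.46 did not pass (limma adjusted p = 0.12). Over 15 arrays it was -1.79 ± 0.14, 3.45-fold lower in females (adjusted p = 7.23e-06), without overlap, where 2.56% of all probe sets were lower in females without overlap. In the 12 DHT arrays alone it was -1.75 ± 0.14 (adjusted p = 4.54e-05, background 12.2%), and at matched times the female array was 0.183 to 0.410 of the male array.

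The remaining members did not pass between the sexes. Peg3 encodes a zinc finger protein, and its 96765_at had a lowest, median and highest signal of 830, 1048 and 1219 on female arrays and 356, 985 and 1278 on male arrays. Its log2 difference of 0.24 ± 0.23 (limma adjusted p = 0.637) became 0.04 ± 0.12 without male vehicle replicate 2, the array at 356. Peg3 161316_f_at averaged 542 ± 145 on the female and 399 ± 122 on the male arrays (SD, n = 8 each), a log2 difference of 0.44 ± 0.19 (adjusted p = 0.23). Peg3 101451_at ranged from 135 to 450 in females and from 75.3 to 639 in males, with a log2 difference of 0.10 ± 0.35 (adjusted p = 0.918). Without male vehicle replicate 2, the array at 75.3, it turned to -0.15 ± 0.26 (adjusted p = 0.774).

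Mest, an enzyme-like protein of the alpha/beta hydrolase family, ranged from 333 to 573 on female and from 110 to 618 on male arrays. Its log2 difference was 0.12 ± 0.27 (limma adjusted p = 0.861), and turned to -0.10 ± 0.17 (adjusted p = 0.764) without male vehicle replicate 2, the array at 110. Cdkn1c encodes an inhibitor of cyclin-dependent kinases that holds back the cell cycle, and lies on chromosome 7 like Igf2 and Peg3. It averaged 754 ± 136 on the female and 680 ± 192 on the male arrays (SD, n = 8 each), a log2 difference of 0.17 ± 0.12 (adjusted p = 0.503). For both genes the arrays of the sexes overlapped.

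**Figure D2:**
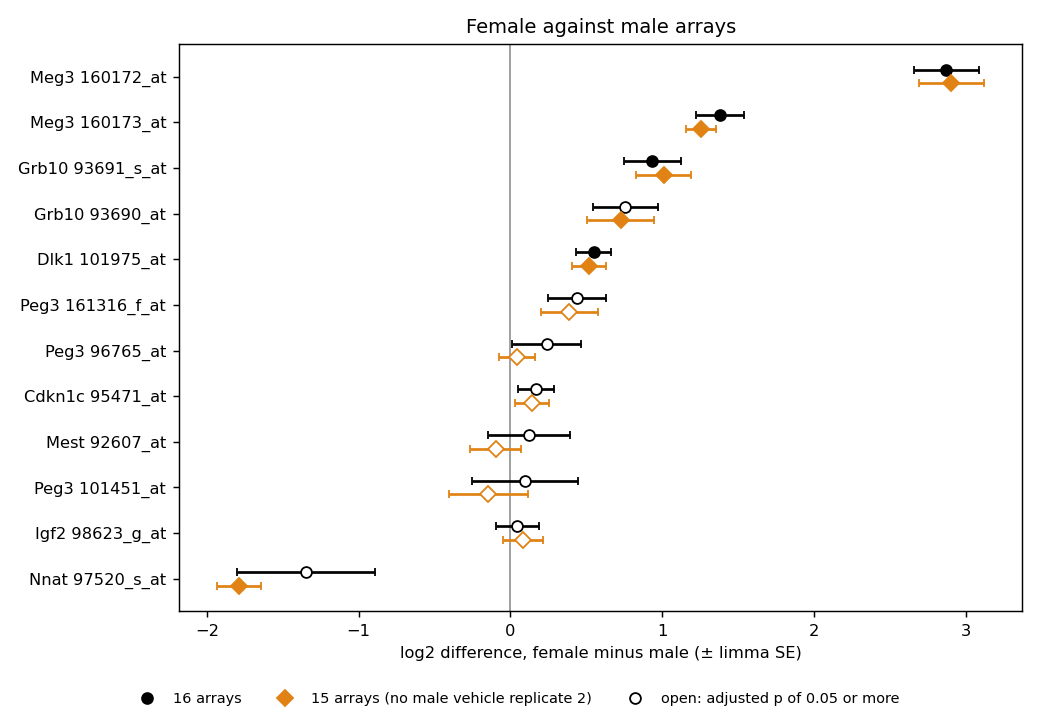
Log2 difference, female minus male, with its limma SE for the 12 tested probe sets, from 16 arrays (black circles) and from 15 without male vehicle replicate 2 (orange diamonds). Filled symbols have an adjusted p under 0.05. Nnat lies left of 0 at -1.35 and -1.79, and Meg3 160172_at lies farthest right.

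Markers of other cell types also differed between the sexes. The following levels and sums of male arrays leave out vehicle replicate 2, given apart for 3 lists, and counts of calls are from 16 arrays. Of 8 smooth muscle markers 6 were higher in females, among them Cnn1 and Myh11, a calponin and a myosin heavy chain, and their summed signal was 10037 to 14994 on female arrays and 4888 to 7224 on male arrays. By its median no smooth muscle marker was at 0 in either sex, but Cnn1 had a median of 430 on female arrays and 15.9 on male arrays. Of 10 fat progenitor and stroma markers 3 were higher in females (Lum, Thy1 and Pdgfrb), with sums of 41719 to 55891 on female and 36178 to 51178 on male arrays. Differences were above 0 for 8 of the 10 and below 0 for 2. Gsn had a median of 17402 on female and 23619 on male arrays, and Dpp4 of 160 and 194. Gsn had the highest median of the list in both sexes, so the sums lean on a marker opposite to the called ones. Of 10 tested macrophage markers 2 were higher, with sums over 12 genes of 28129 to 38336 on female and 22571 to 27470 on male arrays, and 5967 on male vehicle replicate 2. Of 4 tested brown fat markers 1, Ucp1, was lower in females, the direction of the Nnat difference, with a median of 105 on female arrays and 682 on male arrays. The sum of 8 brown fat markers was 1911 to 3157 on female and 4234 to 6459 on male arrays, and 12917 on male vehicle replicate 2. On that array the 4 tested markers moved apart. Cox8b was at 9318 and Cox7a1 at 3144, against male medians of 2529 and 140. Ucp1 was at 35.8 and Cidea at 172, against male medians of 682 and 1334.

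The adipocyte sum was 141872 to 196419 on female and 173546 to 248222 on male arrays, and 46618 on male vehicle replicate 2. There the adipocyte list did not move as one, since Slc2a4, the insulin-responsive glucose transporter of fat and muscle, was at 5422 against a male median of 2075. With male vehicle replicate 2 included, limma called 0 of 15 adipocyte markers between the sexes, with 2 at an unadjusted p under 0.05. Without that array the median adipocyte sum was 157588 on female and 214695 on male arrays. Every marker of the list then had a lower median on female arrays. Calls for this list were counted only with that array, so they cannot show equal adipocyte content in the sexes. Of 7 exocrine pancreas markers 1, the trypsinogen gene Prss2, was called higher in females, and their sum was 2478 to 97448 (median 4060) on female and 2586 to 3870 on male arrays. Of 4 tested mesothelium markers 1, Wt1, was higher, with a median of 224 on female and 103 on male arrays. The list did not move as one, with 2 differences above 0 and 2 below. Upk3b had a median of 653 on female and 870 on male arrays. The sums over 6 genes overlapped, at 1142 to 1619 on female and 1207 to 1991 on male arrays. Of 19 tested skeletal muscle markers 18 had a difference below 0 and 1, Tcap, was called lower in females, with sums over 20 genes of 22757 to 55445 on female and 43015 to 74572 on male arrays. With the skeletal muscle level as a covariate the sex difference was 2.93 ± 0.24 for Meg3 160172_at, 1.16 ± 0.12 for Meg3 160173_at, 0.50 ± 0.13 for Dlk1, 1.02 ± 0.21 for Grb10 93691_s_at and -2.09 ± 0.26 for Nnat, all called (limma adjusted p from 9.27e-06 to 0.029). That level was 13.4 on male vehicle replicate 2 and 9.27 to 10.7 on the other arrays, so the covariate mostly set that array apart. The part of skeletal muscle among the other arrays, and that of the other marker lists, was not tested.

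DHT against vehicle called 0 of the 12 probe sets, and 0 had an unadjusted p under 0.05 (limma, 12 against 4 arrays, adjusted p from 0.625 to 0.928). The same test called 3 of 7453 probe sets, 0.0403%. The DHT and vehicle arrays overlapped for all 12, where 0.161% of all probe sets did not overlap. On 16 arrays the log2 difference was largest for Peg3 101451_at at 0.66 ± 0.40, Nnat at 0.63 ± 0.53 and Mest at 0.58 ± 0.31. Without male vehicle replicate 2, which was low for all 3 genes, these were 0.17 ± 0.32, -0.25 ± 0.18 and 0.14 ± 0.21, and again 0 were called (background 0.0537%). Meg3 160172_at differed by -0.32 ± 0.25, Dlk1 by 0.16 ± 0.13 and Grb10 93691_s_at by -0.05 ± 0.22.

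Cdkn1c was below the vehicle mean on 9 of 12 DHT arrays and below all 4 vehicle arrays on 7 of them, where Igf2 98623_g_at was so on 9 and 2. Female arrays read 699 and 962 with vehicle and 854, 693, 697, 599, 618 and 910 from 1 to 24 h of DHT. Male arrays read 943 and 685 with vehicle and 628, 582, 527, 517, 550 and 1011 over the same times. In both sexes the arrays from 3 to 18 h were below both vehicle arrays, and those at 24 h lay near the higher vehicle array. The mean difference was -0.28 ± 0.14 (limma adjusted p = 0.625) and, without male vehicle replicate 2, -0.34 ± 0.14 (adjusted p = 0.999). Of 72 comparisons of a probe set at a single time with vehicle, 0 were called (adjusted p from 0.697 to 1.000, background 0.0157%) and 3 had an unadjusted p under 0.05. These were Cdkn1c at 12 h (-0.53 ± 0.21) and 18 h (-0.47 ± 0.21), and Peg3 161316_f_at at 18 h (0.80 ± 0.33). Of all 7453 probe sets, 167 at 12 h and 380 at 18 h had an unadjusted limma p under 0.05. The 6 times share their vehicle arrays. These are labelled 24 h, so the DHT arrays from 1 to 18 h have no vehicle array of their own time.

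Late against early DHT (12, 18 and 24 h against 1, 3 and 6 h, 6 arrays each) also called 0 of 12, as did a moderated F test over the 6 times, with 0 at an unadjusted p under 0.05 in either (limma, background 0% for both). The late minus early log2 difference was -0.49 ± 0.40 for Peg3 101451_at, which was below the early mean on 6 of 6 late arrays. The other Peg3 probe sets differed in sign, with -0.26 ± 0.26 for 96765_at and 0.29 ± 0.22 for 161316_f_at. The latter was above its early mean on 4 of 6 late arrays. The same difference was -0.37 ± 0.25 for Grb10 93690_at and -0.32 ± 0.22 for Grb10 93691_s_at. On 93691_s_at the male arrays read 240 to 275 early and 127 to 166 late, and female arrays 354 to 425 and 347 to 564. On 93690_at the male arrays read 217 to 297 early and 88.3 to 154 late, and female arrays 262 to 336 and 240 to 426. For both, late arrays lay below early ones in males only. For Nnat the late minus early difference was -0.36 ± 0.53, or -0.36 ± 0.16 without male vehicle replicate 2 (adjusted p = 0.717), and the 4 male arrays from 6 to 24 h read below those at 1 and 3 h.

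**Figure D3:**
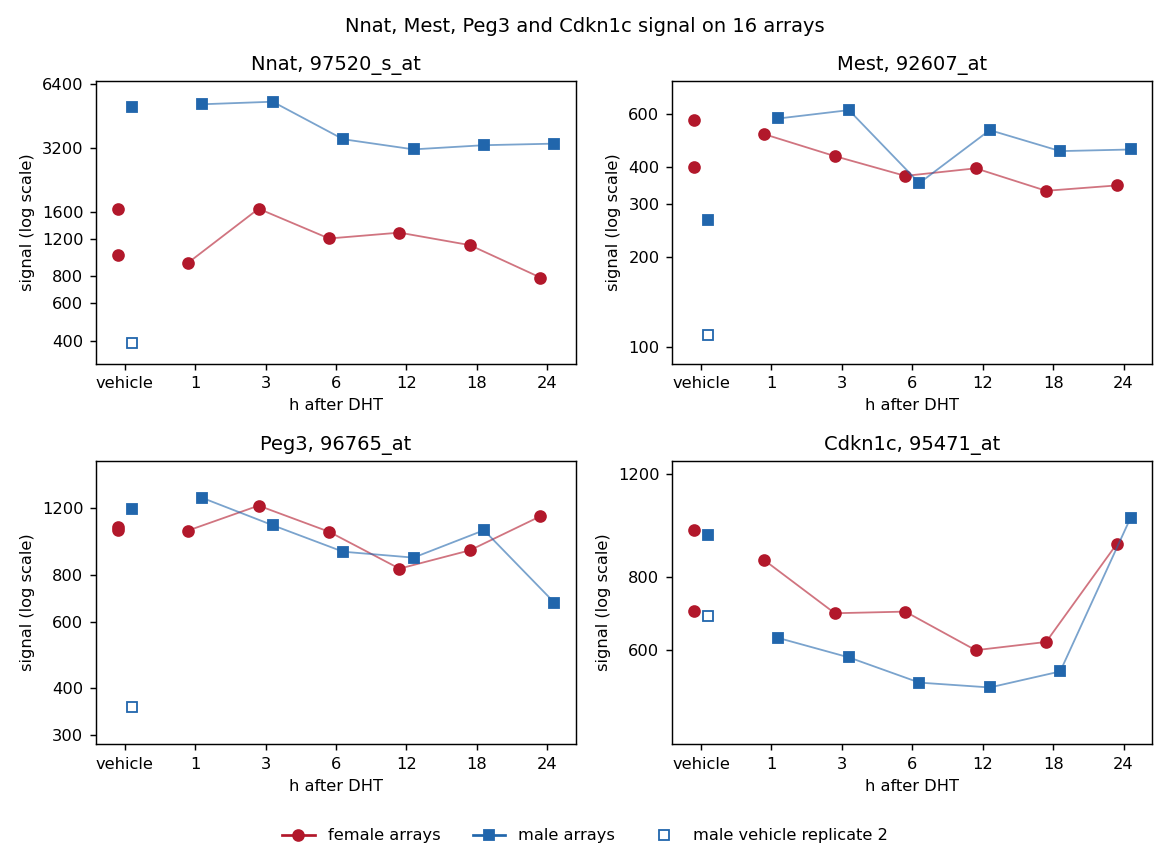
Signal (log axis) of Nnat, Mest, Peg3 96765_at and Cdkn1c on vehicle arrays and at 1 to 24 h after DHT, with female arrays as red circles, male arrays as blue squares and male vehicle replicate 2 as an open square. The open square is the lowest point for Nnat (390), Mest (110) and Peg3 (356), and Cdkn1c is lowest at 12 h in both sexes.

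**Figure D4:**
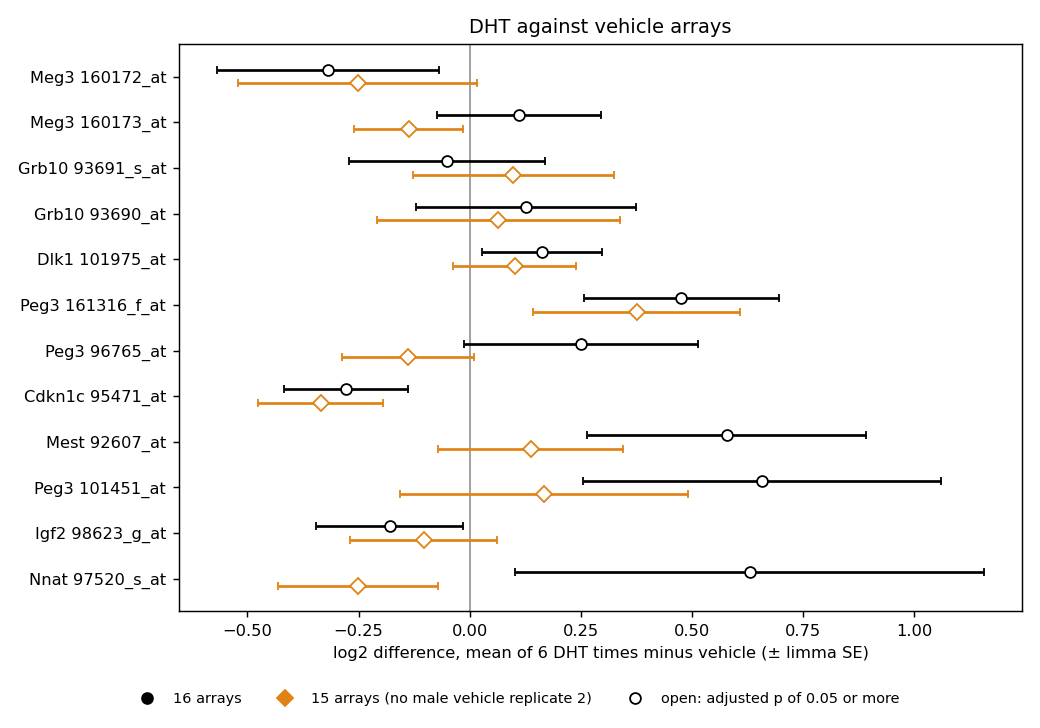
Log2 difference, mean of the 6 DHT times minus vehicle, with its limma SE for the 12 tested probe sets, from 16 arrays (black circles) and from 15 without male vehicle replicate 2 (orange diamonds). All symbols are open, since no probe set had an adjusted p under 0.05, and Nnat lies at 0.63 on 16 arrays and at -0.25 on 15.

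Mest had the largest sex difference of the DHT response among the members. In females it read 513, 434, 373, 395, 333 and 347 from 1 to 24 h of DHT, against 573 and 400 with vehicle. In males it read 579, 618, 353, 530, 451 and 457 over the same times, against 266 and 110 with vehicle. All 6 male DHT arrays were thus above both male vehicle arrays, while 4 of the 6 female DHT arrays were below both female vehicle arrays. Absence of overlap with higher DHT arrays held in males for Mest and Peg3 161316_f_at, 2 of 12, beside 6.09% of all probe sets. For the sex difference of the DHT response, 481 of all 7453 probe sets had an unadjusted limma p under 0.05. The female response minus the male response was -1.69 ± 0.40 for Mest (limma adjusted p = 0.608), the only one of 12 with an unadjusted p under 0.05, and 0 were called (background 0%). Without male vehicle replicate 2 it was -1.11 ± 0.31 (adjusted p = 0.999, background 0.0268%), and it then rests on a single male vehicle array. Without male vehicle replicate 1 instead, 4 of 12 were called, Meg3 160173_at, Mest, Nnat and Peg3 96765_at, beside 31.8% of all probe sets. On male vehicle replicate 2 the sums of skeletal muscle and adipocyte markers were high and low, as given above. With the skeletal muscle level as a covariate, which mostly set that array apart, the Mest difference was -0.94 ± 0.44 (limma adjusted p = 0.995). The part of the adipocyte markers was not tested.

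Other genes of the same pathways were taken from named lists. Of 61 other imprinted genes 19 were tested, and 1 was higher in females, Gatm, an enzyme of creatine synthesis (0.75 ± 0.13, limma adjusted p = 0.00519), averaging 666 on female and 388 on male arrays. Their median difference was 0.09, beside 0.02 over all probe sets. Over all probe sets 4.74% were called higher and 1.09% lower, so 1 call among 19 does not set the imprinted list apart. Of 19 tested genes of the insulin and IGF pathway 1 was higher in females and 2 were lower. Igfbp7, an IGF-binding protein, was higher by 0.77 ± 0.14 (adjusted p = 0.00761). Irs2, an insulin receptor substrate, was lower, with a difference of -1.17 ± 0.29 (adjusted p = 0.0392), and so was the kinase gene Akt2, with -0.54 ± 0.12 (adjusted p = 0.0194).

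Of 15 tested genes of the Notch pathway, on which DLK1 acts as a non-canonical ligand, 0 were called between the sexes, and the smallest p was that of the protease gene Adam10 (0.52 ± 0.16, limma adjusted p = 0.0813), the only one with an unadjusted p under 0.05. Of 4 other CDK inhibitors 0 were called, and 0 had an unadjusted p under 0.05. Against vehicle, DHT called 0 genes of these 4 lists (limma), and 3 insulin and IGF genes, 1 CDK inhibitor and 0 genes of the other lists had an unadjusted p under 0.05. The CDK inhibitor was Cdkn1a, at 1.08 ± 0.17 (adjusted p = 0.0876), opposite in sign to Cdkn1c at -0.28. The others were Igfbp3, an IGF-binding protein, at -0.73 ± 0.31, and the PI3-kinase subunit genes Pik3r1 at 0.65 ± 0.27 and Pik3ca at -0.51 ± 0.23 (adjusted p = 0.625 for each).

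The probe sets most like each member were ranked by Pearson r of log2(signal + 16) over the 15 arrays without male vehicle replicate 2, which share their sex difference and scaling. Closest to Meg3 160172_at were Mfap2 (r = 0.978) and Fkbp11 (0.974). Within the 8 female arrays r was 0.701 and 0.218, and within 7 male arrays 0.717 and 0.981. Closest to Dlk1 were Selplg (0.926) and Tnfrsf1b (0.923), to Grb10 93691_s_at Tnfaip2 (0.932) and Sfrp2 (0.932), and to Nnat Pcsk6 (0.964) and Sncg (0.950). For Dlk1, Grb10 and Nnat, r within 1 sex ran from 0.263 (Sncg, female arrays) to 0.906 (Selplg, 7 male arrays). Igf2 98623_g_at, which was not called between the sexes, followed Fgfr2 (0.939) and Gstm2 (0.929), with r of 0.946 and 0.989 within the female arrays and 0.924 and 0.676 within 7 male arrays. For Cdkn1c these were Myo1d (0.821) and Psmb4 (0.805), for Peg3 96765_at Nucks1 (0.798) and Wipi2 (0.785), and for Mest Gtse1 (0.710) and Chtf8 (0.700). Over all 16 arrays r was 0.539 for Nucks1, 0.0145 for Wipi2 and 0.682 for Fgfr2. Of the pairs named, r over 16 arrays was higher than over 15 only for Tnfrsf1b (0.932) and Sncg (0.964). The pairs were picked by r on these arrays, so r within 1 sex is not an independent check. Among the members, the Grb10 probe sets 93691_s_at and 93690_at followed each other within females (r = 0.874) and within 7 male arrays (0.735), more closely than both Meg3 probe sets (0.378 and 0.547). Peg3 96765_at had r of 0.118 and 0.946 with 101451_at, in the same order, and of -0.684 and -0.300 with 161316_f_at.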

How the data were processed

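RNA of retroperitoneal fat was hybridised to 16 Affymetrix arrays. Each probe set has a linear signal intensity per array, which the authors deposited after MAS5 processing, per the submitters' processing notes, with no version given. MAS5 scaling makes levels relative to the whole array.

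Genes were named from the platform annotation where a probe set has 1 symbol. All 14 member symbols matched a GRCm38 gene table by Entrez identifier. Of 12488 probe sets, 66 controls and those under the 40th percentile of mean signal (127.47) were left out, and 7453 were tested. limma 3.58.1 in R 4.3.3 was fitted to log2(signal + 16) with sex and time as factors (8 residual degrees of freedom), eBayes with a mean trend and Benjamini-Hochberg adjustment over all probe sets, and a second model added a sex by DHT term. The script was tested on simulated data. Calls have an adjusted p under 0.05. Replicate numbers follow accession order and pair nothing. The number of arrays limits the precision.

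All member probe sets are named. Genes of the pathway lists were named if called, up to 3 each way, or else by smallest p. The members, lists and rules were chosen with earlier results of these data known. The alternatives were other pseudocounts, no filter, quantile normalization, no trend, 1 probe set per gene, array weights, antisense control or skeletal muscle level as covariate, DHT arrays as 1 group, separate means per sex and time, DHT arrays only, and each array left out.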

Additional observations from a re-analysis of the deposited data

Results flagged for a closer look

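In 3 of 24 sets of 8 arrays (12 probe sets, each sex), the lowest array lay apart from the other 7 by Dixon's ratio above its 95% critical value of 0.526. Chance alone gives about 1 in 20. The ratios were taken on the log2 scale of the tests, and do not apply to the linear signals printed here. Nnat was at 390 on male vehicle replicate 2, against 3150 to 5267 on the other male arrays (ratio 0.800). Meg3 160173_at was at 232 on the same array, against 387 to 530 on the other male arrays (ratio 0.616). That array is the one with high skeletal muscle and low adipocyte signal. Peg3 101451_at was at 135 on female vehicle replicate 2, against 287 to 450 on the other female arrays (ratio 0.618).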

How the results depend on the processing

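The sex difference of both Meg3 probe sets and of Grb10 93691_s_at was called in every fit that leaves out 1 array, with log2 values of 2.75 to 3.05, 1.26 to 1.43 and 0.78 to 1.02. Dlk1 was called in 12 of 16 such fits (0.48 to 0.61). Between 3 and 6 member probe sets were called over these fits, while calls over all probe sets ran from 261 to 1185, against 434 with 16 arrays. The 1185 came without male vehicle replicate 2, and the lowest counts without the 6 h or 12 h array of the females (261, 285) or males (275, 286) or the female 3 h array (284). Calls over all probe sets were 1469 with array weights, 910 in the DHT arrays alone, 761 with DHT as 1 group, 752 with the skeletal muscle level as covariate and 293 with 1 probe set per gene. Nnat was called lower in females without male vehicle replicate 2, with array weights, with the skeletal muscle covariate (-2.09), with DHT as 1 group and in the DHT arrays alone. Grb10 93690_at was called without male vehicle replicate 2, with array weights, with the antisense control covariate, with DHT as 1 group and in the DHT arrays alone. Peg3 161316_f_at was called with the antisense control covariate (adjusted p = 0.0372). The sex difference of the DHT response gave 4 member calls, against 0 with 16 arrays, without male vehicle replicate 1 (Meg3 160173_at, Mest, Nnat and Peg3 96765_at). Then 31.8% of all probe sets were called, and replicate 2, high in skeletal muscle markers, alone stood for male vehicle. DHT called 0 members in all alternatives run, at the mean, at single times and in the F test. Array weights raised its calls over all probe sets to 9, against 3, at the mean and to 25, against 7, over single times. No difference called on 16 arrays changed sign in the alternatives run. The sex differences of the DHT response of Nnat, Peg3 96765_at and Meg3 160173_at, called in the fit without male vehicle replicate 1 (-3.44, -1.44 and -1.01), were 0.19, 0.25 and -0.05 without replicate 2 and 0.98, 0.62 and 0.23 at their highest in the remaining alternatives. The uncalled DHT differences of Nnat and Peg3 96765_at turned negative without male vehicle replicate 2 (-0.25 and -0.14), with array weights (-0.22 and -0.19) and with the skeletal muscle covariate (-0.14 and -0.08). No paired analysis was possible because the labels carry no replicate numbers. With 2 vehicle arrays per sex and 1 array per time and sex, responses at single times are measured with little precision, and dim probe sets hold a larger share of background.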
